A study of Homo sapiens with 8 samples.

Results

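The expression of TXNIP, of its closest relative ARRDC4 and of the transcription factor genes MLX, MLXIP and MLXIPL was followed in 2 prostate cancer cell lines in which the level of MYCL had been changed. These 5 genes, of 78691 in the count table, were taken by name. TXNIP was selected on its measured fall in C4-2B cells with MYCL, so the values of all 5 genes in that comparison are given as a description without a test. The 8 libraries, 2 per group, came from C4-2B cells with an empty lentiviral vector (control), C4-2B cells with a lentiviral vector driving human MYCL and EGFP from the EF1A promoter (MYCL), and NCI-H660 cells with a non-targeting shRNA (shCtrl) or shRNAs against MYCL (shMYCL). C4-2B is a castration-resistant adenocarcinoma line and NCI-H660 a neuroendocrine prostate cancer line. The sources describe the NCI-H660 knockdown both as adenoviral and transient and as collected after stable knockdown, and which holds for these libraries was not settled. Both lines were kept in RPMI medium with serum, NCI-H660 with further supplements, and glucose concentrations are not given in the sources used here. The labels call the replicates of C4-2B control biological and those of the other 3 groups replicates only, and none says whether they came from separate transductions, so p-values measure the spread between these libraries, which may be technical.

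TXNIP is an alpha-arrestin that binds reduced thioredoxin and helps to remove the glucose transporters encoded by SLC2A1 and SLC2A4 from the cell surface, and ARRDC4 shares its arrestin fold and also limits glucose uptake. MLXIP encodes MondoA and MLXIPL encodes ChREBP. Each is a glucose sensor that moves to the nucleus when glucose 6-phosphate builds up and binds DNA only as a dimer with MLX. TXNIP and ARRDC4 are the classical targets of MondoA, whose dimer with MLX recognises a carbohydrate response element made of a pair of E-box-like elements. MLX also pairs with MXD1, MXD4 and MNT, repressors that can pair instead with MAX, the partner of the MYC proteins.

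The promoters of TXNIP and ARRDC4 are shown because both genes are known targets of MLX dimers and both were lower in MYCL-expressing C4-2B cells. The windows run from 250 bases before to 50 bases after the RefSeq start, on GRCh38.p14, at chr1:145996530-145996829 on the minus strand for TXNIP and at chr15:97960453-97960752 on the plus strand for ARRDC4. Capitals mark every match to the E-box-like element CACGNG on either strand.
TXNIP: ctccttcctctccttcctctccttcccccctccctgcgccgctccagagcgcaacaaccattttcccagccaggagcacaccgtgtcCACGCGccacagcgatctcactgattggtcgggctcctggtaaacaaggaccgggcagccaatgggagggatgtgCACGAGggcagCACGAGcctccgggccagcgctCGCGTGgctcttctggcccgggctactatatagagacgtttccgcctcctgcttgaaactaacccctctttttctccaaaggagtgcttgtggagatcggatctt
ARRDC4: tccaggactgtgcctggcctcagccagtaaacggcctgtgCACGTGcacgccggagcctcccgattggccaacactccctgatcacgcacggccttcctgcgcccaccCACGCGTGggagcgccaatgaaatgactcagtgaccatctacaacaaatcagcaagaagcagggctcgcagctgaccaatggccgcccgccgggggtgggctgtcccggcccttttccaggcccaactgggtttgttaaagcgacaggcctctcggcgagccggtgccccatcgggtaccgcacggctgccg
The TXNIP window held 4 such elements, which began 163, 88, 77 and 55 bases before the start. The elements at 88 and 77 were separated by 5 bases, the spacing of a carbohydrate response element, and this paired arrangement occurred in 27 of 35116 promoter windows (0.0769%). ARRDC4 held the full E-box CACGTG 210 bases before its start and a pair of overlapping elements at 142 and 140, but no pair with that spacing. A window with at least 1 CACGNG was common, at 30.5% of all windows, and CACGTG was found in 7.26%. CCAAT, the core bound by NF-Y, stood 140 and 105 bases before the TXNIP start and 187, 128 and 67 bases before the ARRDC4 start, and was present in 34.6% of windows. MLX held CACGTG at 50 bases and CCAAT at 66, MLXIP held CCAAT at 76, and MLXIPL held none of these motifs. A second RefSeq start of TXNIP had a window without any of them. These matches are letters in a window and are no measure of binding.

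**Figure D1:**
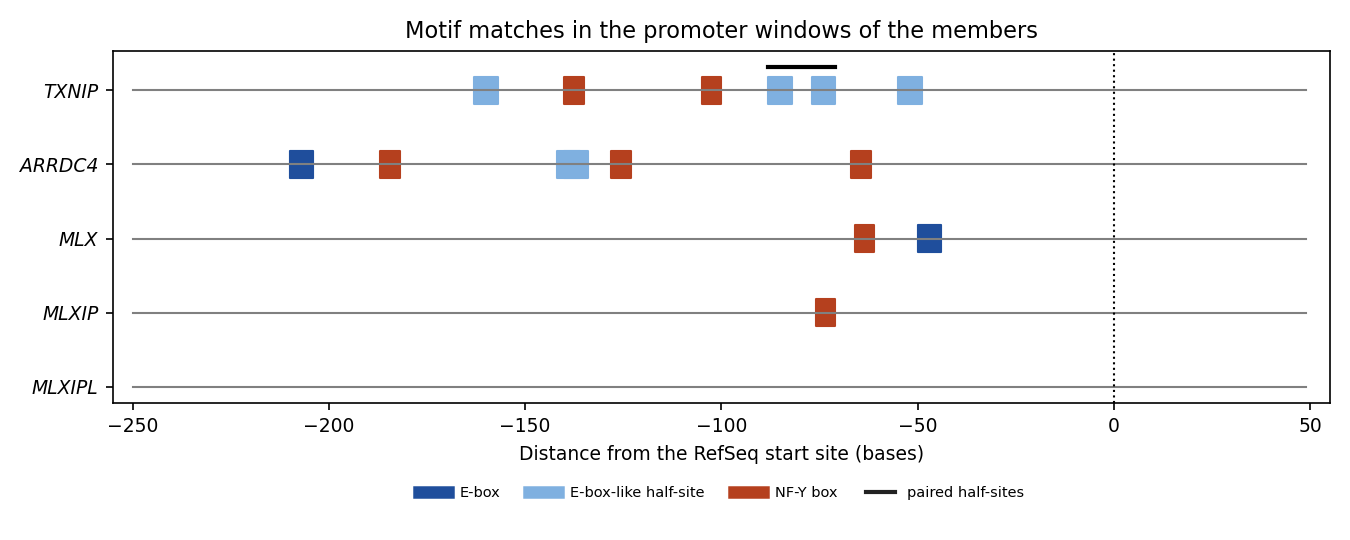
Motif matches in the promoter windows of the 5 genes, with the horizontal axis giving the distance in bases from the RefSeq start and each box 1 match (dark blue CACGTG, light blue CACGNG, red CCAAT, black bar the pair of CACGNG with 5 bases between). TXNIP is the gene with the paired elements, ARRDC4 and MLX hold the full E-box, and the MLXIPL line is empty.

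The libraries held 15177071 to 32344170 counts, and mitochondrial genes took 9.63% to 10.7% of them in C4-2B and 3.50% to 3.83% in NCI-H660 cells. MYCL itself followed the labels, with 371 and 320 counts in C4-2B control against 65524 and 70253 with MYCL, and 1863 and 1602 counts in shCtrl against 165 and 198 in shMYCL. The summed TPM (the authors' values, counts corrected for gene length and scaled to an equal sum in each library) of 9 luminal markers was 2570 to 2580 in C4-2B control, 1610 to 1760 with MYCL and 3.98 to 4.73 in NCI-H660 libraries, where KLK3 was at 0 counts. That of 8 neuroendocrine markers was 6.94 to 7.32 in C4-2B, 1220 to 1380 in shCtrl and 991 to 1110 in shMYCL. Of 6 fibroblast markers DCN was at 0 counts in every library, and their summed TPM was 2.74 to 3.23 in C4-2B control, 3.98 to 4.64 with MYCL, 39.3 to 44.6 in shCtrl and 26.3 to 27.1 in shMYCL, with most of it from COL1A2 in NCI-H660 cells. Of 5 leukocyte markers PTPRC was at 0 counts in all libraries but 1, with 1 count, and their sum did not pass 3.21 TPM. A gene was called when its adjusted p was under 0.05 and its log2 fold change 0.5 or more in size. With MYCL in C4-2B cells, 3 of 9 luminal markers were called lower, where 8.12% of all genes tested were, and COL1A1 was called higher of the 2 fibroblast markers tested (log2 fold change 0.74, adjusted p = 0.00227, edgeR's quasi-likelihood test), where 11.8% of all genes were. In shMYCL, 2 of 8 neuroendocrine markers were called lower, where 8.99% of all genes were, while CHGB (0.44, adjusted p = 0.0105) and SCG3 (0.40, adjusted p = 0.00965, edgeR's quasi-likelihood test) were higher and under the minimum fold change of a call. There COL1A2 was called lower of 3 fibroblast markers tested (−0.68, adjusted p = 0.000252, edgeR's quasi-likelihood test) and 1 of 4 luminal markers was called higher, where 7.18% of all genes were. These markers moved in the same libraries as the genes below, and their part in these results was not tested.

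TXNIP was among the genes with the largest differences in C4-2B cells and lay at a far higher level in NCI-H660 cells. It encodes the thioredoxin-binding alpha-arrestin at chromosome 1, 145992435 to 145996579 on the minus strand (GRCh38, GENCODE 44). C4-2B control libraries held 1584 and 1398 TXNIP counts and C4-2B MYCL libraries 129 and 133. As CPM, the counts scaled to an equal library size with TMM over all 8 libraries, these were 51.4 and 62.0 in control and 7.34 and 8.02 with MYCL. In NCI-H660 cells TXNIP stood at 893 and 928 CPM in shCtrl and at 833 and 914 CPM in shMYCL. The groups of C4-2B did not overlap, whereas the shMYCL values spanned the lower shCtrl value.

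With MYCL, the level of TXNIP in C4-2B cells was 7.34-fold lower (log2 fold change −2.88 ± 0.129 SE, n = 2 libraries per group), which placed it 37th from the lowest of 16866 genes tested. This is the difference by which TXNIP was chosen. In bulk RNA, fewer cells that express TXNIP and less TXNIP RNA per cell cannot be told apart. In NCI-H660 cells, where MYCL itself fell 8.35-fold (log2 fold change −3.06 ± 0.146 SE, adjusted p = 4.29e-09, edgeR's quasi-likelihood test), the TXNIP log2 fold change was −0.06 ± 0.105 SE (95% interval −0.29 to 0.16, adjusted p = 0.702, edgeR's quasi-likelihood test). The difference between the lines in the response of TXNIP was not tested, and one was an overexpression and the other a knockdown.

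Between the control groups of the lines, TXNIP was 16.0-fold higher in NCI-H660 shCtrl than in C4-2B control (log2 difference 4.0 ± 0.109 SE), given without a test because the C4-2B control libraries took part in its choice. By TPM, TXNIP ranked 222nd and 215th among all genes in the shCtrl libraries (596 and 583 TPM) and 241st and 218th in shMYCL (542 and 594 TPM). In C4-2B control it ranked 4621st and 4079th (22.0 and 26.4 TPM) and with MYCL 10821st and 10707th (3.13 and 2.98 TPM). The order of TXNIP levels was therefore NCI-H660 shCtrl and shMYCL, which did not differ beyond their spread, then C4-2B control, then C4-2B MYCL.

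ARRDC4, the paralogue of TXNIP on chromosome 15 (97960703 to 97973833, plus strand), was likewise highest in NCI-H660 cells and lowest in C4-2B MYCL cells, over a narrower range. It was measured at 11.8 and 13.0 CPM in C4-2B control and at 7.40 and 5.61 CPM with MYCL. In NCI-H660 cells it was at 24.8 and 25.8 CPM in shCtrl and at 25.5 and 28.3 CPM in shMYCL. Again the C4-2B groups were separate and the NCI-H660 groups overlapped. ARRDC4 was 1.90-fold lower with MYCL in C4-2B cells (log2 fold change −0.92 ± 0.175 SE), untested like the other members there. In NCI-H660 cells its log2 fold change was 0.09 ± 0.126 SE (95% interval −0.18 to 0.35, adjusted p = 0.663, edgeR's quasi-likelihood test). ARRDC4 was higher in NCI-H660 shCtrl than in C4-2B control by 1.02 on the log2 scale (SE 0.133, adjusted p = 2.04e-05, edgeR's quasi-likelihood test).

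The balance of the 2 arrestins in TPM differed between groups. The ratio of TXNIP to ARRDC4 was 6.36 and 6.83 in C4-2B control and 1.52 and 2.06 with MYCL. In NCI-H660 cells it was 52.1 and 52.0 in shCtrl and 47.3 and 46.8 in shMYCL. The ratio takes up the selection of TXNIP and is a description.

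**Figure D2:**
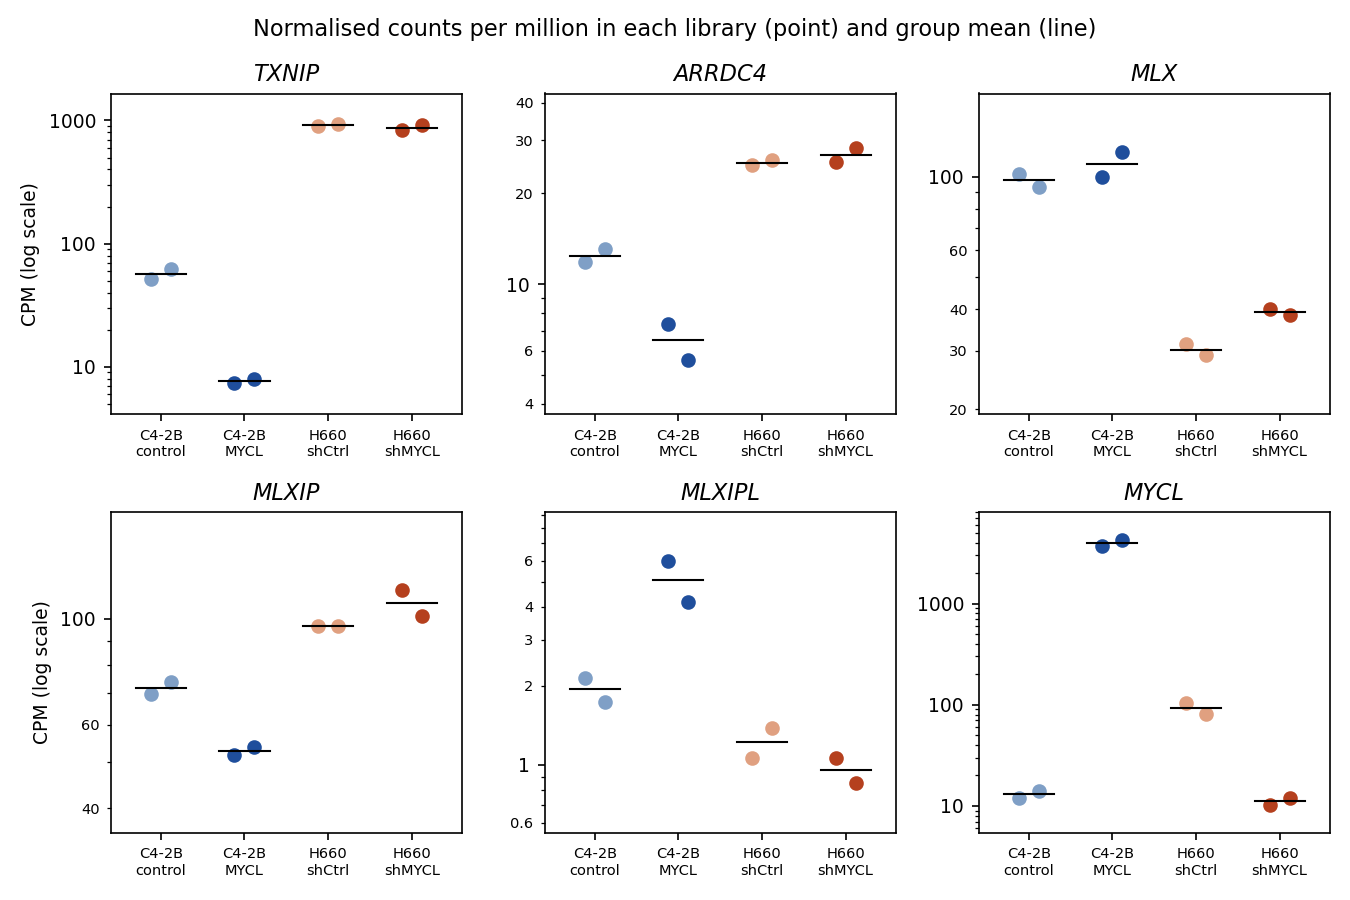
Normalised counts (CPM, log axis) of the 5 genes and of MYCL, with 1 point per library and a line at the mean of each group of 2. The mean of TXNIP is 56.7 CPM in C4-2B control, 7.68 with MYCL, 910 in NCI-H660 shCtrl and 873 in shMYCL, and the MYCL panel shows the groups of each line far apart.

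MLX, the shared dimer partner, was the member whose level in NCI-H660 cells was higher after MYCL knockdown by the widest margin relative to its error. MLX lies on chromosome 17, 42567072 to 42573239 on the plus strand. It stood at 31.4 and 29.0 CPM in shCtrl and at 39.9 and 38.4 CPM in shMYCL, without overlap. The log2 fold change was 0.37 ± 0.118 SE (95% interval 0.12 to 0.62, adjusted p = 0.0301, edgeR's quasi-likelihood test), past the threshold on p and short of the minimum of 0.5 that a call required. DESeq2 gave an adjusted p of 0.0588, within a range of 0.0144 to 0.329 over the alternatives. In C4-2B cells MLX was at 102 and 93.2 CPM in control and at 99.5 and 118 CPM with MYCL, which overlapped, and the log2 fold change of 0.17 ± 0.095 SE turned to −0.07 on log2(TPM + 1), a scale that moved the median over all tested genes to −0.14. MLX was the member called lower in the neuroendocrine line, with a log2 difference of −1.70 ± 0.101 SE between shCtrl and C4-2B control (adjusted p = 1.87e-08, edgeR's quasi-likelihood test). PSMC3IP on the opposite strand overlaps 775 exon bases of MLX (18.2%) and held 5070 counts over the 8 libraries against 11352 for MLX, and whether the counting used strand is not given in the sources used here.

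MLXIP, which encodes MondoA, was the more abundant of the 2 sensor genes in every library. It lies on chromosome 12, 122078756 to 122147344 on the plus strand. C4-2B cells held 69.6 and 73.9 CPM in control and 51.8 and 53.8 CPM with MYCL (log2 fold change −0.44 ± 0.078 SE, untested). NCI-H660 cells held 96.6 and 96.5 CPM in shCtrl and 115 and 101 CPM in shMYCL. The NCI-H660 groups did not overlap, but the log2 fold change of 0.16 ± 0.106 SE did not pass (95% interval −0.07 to 0.39, adjusted p = 0.294, edgeR's quasi-likelihood test). MLXIP was higher in NCI-H660 shCtrl than in C4-2B control by 0.42 on the log2 scale (SE 0.088, adjusted p = 0.000883, edgeR's quasi-likelihood test), again under the minimum of 0.5.

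MLXIPL, which encodes ChREBP, the sensor best known from liver, was scarce throughout. It lies on chromosome 7, 73593194 to 73624543 on the minus strand. Its counts were 66 and 39 in C4-2B control, 105 and 69 in C4-2B MYCL, 19 and 27 in shCtrl and 17 and 14 in shMYCL. The CPM of MLXIPL was 2.14 and 1.73 in C4-2B control and 5.97 and 4.16 with MYCL, a log2 fold change of 1.39 ± 0.296 SE given without a test. Both MYCL libraries lay above both control libraries, the opposite order to that of TXNIP and ARRDC4. In NCI-H660 cells the log2 fold change was −0.36 ± 0.477 SE (95% interval −1.37 to 0.65, adjusted p = 0.627, edgeR's quasi-likelihood test), an interval that includes a 2-fold lower level at this depth. Between the lines MLXIPL differed by −0.67 ± 0.376 SE on the log2 scale (95% interval −1.50 to 0.15, adjusted p = 0.118, edgeR's quasi-likelihood test).

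In TPM, the ratio of MLXIP to MLXIPL was 12.1 and 15.8 in C4-2B control and 3.27 and 4.86 with MYCL. It was 34.3 and 25.7 in shCtrl and 40.5 and 44.1 in shMYCL. MondoA transcripts thus outnumbered ChREBP transcripts in all 8 libraries, least so in the C4-2B MYCL libraries. The ratio of MLX to MLXIP was 6.03 to 9.13 in C4-2B and 1.41 to 1.77 in NCI-H660 libraries, with no overlap between the lines.

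By that threshold for a call, none of the 5 members was called in NCI-H660 shMYCL against shCtrl by edgeR or by DESeq2, where 7.18% of 16980 genes tested were called higher and 8.99% lower. At an unadjusted p under 0.05 MLX alone passed, as higher. Between the control lines, ARRDC4 was called higher and MLX lower of the 4 members tested, where 37.4% of 18748 genes were called higher and 34.2% lower, so that calls were frequent for any gene. Cell line, supplements of the medium, vector and virus cannot be told apart in that comparison. It shares the C4-2B control libraries with the comparison that chose TXNIP. On log2(TPM + 1) the median of all genes lay 0.57 higher in NCI-H660 and the calls were 8530 higher and 3415 lower against 7014 and 6413 from counts. ARRDC4 stayed higher (0.69 to 1.60) and MLX lower (−1.77 to −0.98) over 14 alternatives each, and MLXIP was called higher, at 0.97 to 1.04, on TPM values that were not centred. In C4-2B MYCL against control no member was tested and none is counted as called. The log2 fold changes there were −2.88 for TXNIP, −0.92 for ARRDC4, −0.44 for MLXIP, 0.17 for MLX and 1.39 for MLXIPL.

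Among the remaining alpha-arrestins, none of 3 tested was called in either line by edgeR or DESeq2. All genes tested gave 11.8% called higher and 8.12% lower in C4-2B and 7.18% and 8.99% in NCI-H660 cells. At an unadjusted p under 0.05 ARRDC1 was higher in C4-2B and ARRDC3 lower in NCI-H660 cells. ARRDC1 and ARRDC3 recruit ubiquitin ligases to membrane proteins, and ARRDC3 is a regulator of beta-adrenergic receptors. In C4-2B cells ARRDC1 was 29.3 ± 0.287 CPM (SD, n = 2) in control and 38.8 ± 0.733 with MYCL, a log2 fold change of 0.41 (adjusted p = 0.00552, edgeR's quasi-likelihood test) under the minimum of 0.5. ARRDC2 was at 0.36 (adjusted p = 0.153) and ARRDC3 at −0.04 (adjusted p = 0.833, edgeR's quasi-likelihood test), the latter turning to 0.14 without MYCL replicate 2. In NCI-H660 cells ARRDC3 was 83.6 ± 1.59 CPM in shCtrl and 68.2 ± 1.52 in shMYCL (log2 fold change −0.30, adjusted p = 0.0471, edgeR's quasi-likelihood test). ARRDC1 and ARRDC2 were at 0.03 and −0.05 there, with groups that overlapped. ARRDC5 had at most 2 counts in any library and was not tested. TXNIP and ARRDC4 were the alpha-arrestins whose MYCL libraries both lay below both C4-2B control libraries, which for TXNIP follows from its choice. Genes that were not called also lay in this order, such as ACACA (log2 fold change −0.12, adjusted p = 0.302, edgeR's quasi-likelihood test). The share of all genes with separate groups was not counted, so nothing is read from this order.

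Of the 3 other partners of MLX, MXD1 was the 1 called higher in C4-2B cells with MYCL, where 11.8% of all genes were. MXD1 was at 6.53 and 6.88 CPM in control and at 13.3 and 10.1 CPM with MYCL (log2 fold change 0.81 ± 0.179 SE, adjusted p = 0.00779, edgeR's quasi-likelihood test), a call that was lost on TPM values (0.42 to 0.62, adjusted p = 0.0541 to 0.333 with limma, and as low as 0.000261 over all alternatives). MNT was 19.8 ± 0.216 CPM in control and 27.6 ± 5.19 with MYCL (log2 fold change 0.49, adjusted p = 0.0186, edgeR's quasi-likelihood test), just under the minimum, and it was called without MYCL replicate 2 (0.67). MXD4 was at 0.18, which turned to −0.22 on log2(TPM + 1) and to −0.07 when that was centred on library medians. In NCI-H660 cells none of these 3 was called by edgeR or DESeq2, where 7.18% of all genes were called higher and 8.99% lower. At an unadjusted p under 0.05, 1 of them, MXD1, was lower. MXD1 was lower in both shMYCL libraries, 9.10 and 7.20 CPM, than in both shCtrl libraries, 10.6 and 11.7 CPM, at a log2 fold change of −0.45 (adjusted p = 0.0811, edgeR's quasi-likelihood test).

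**Figure D3:**
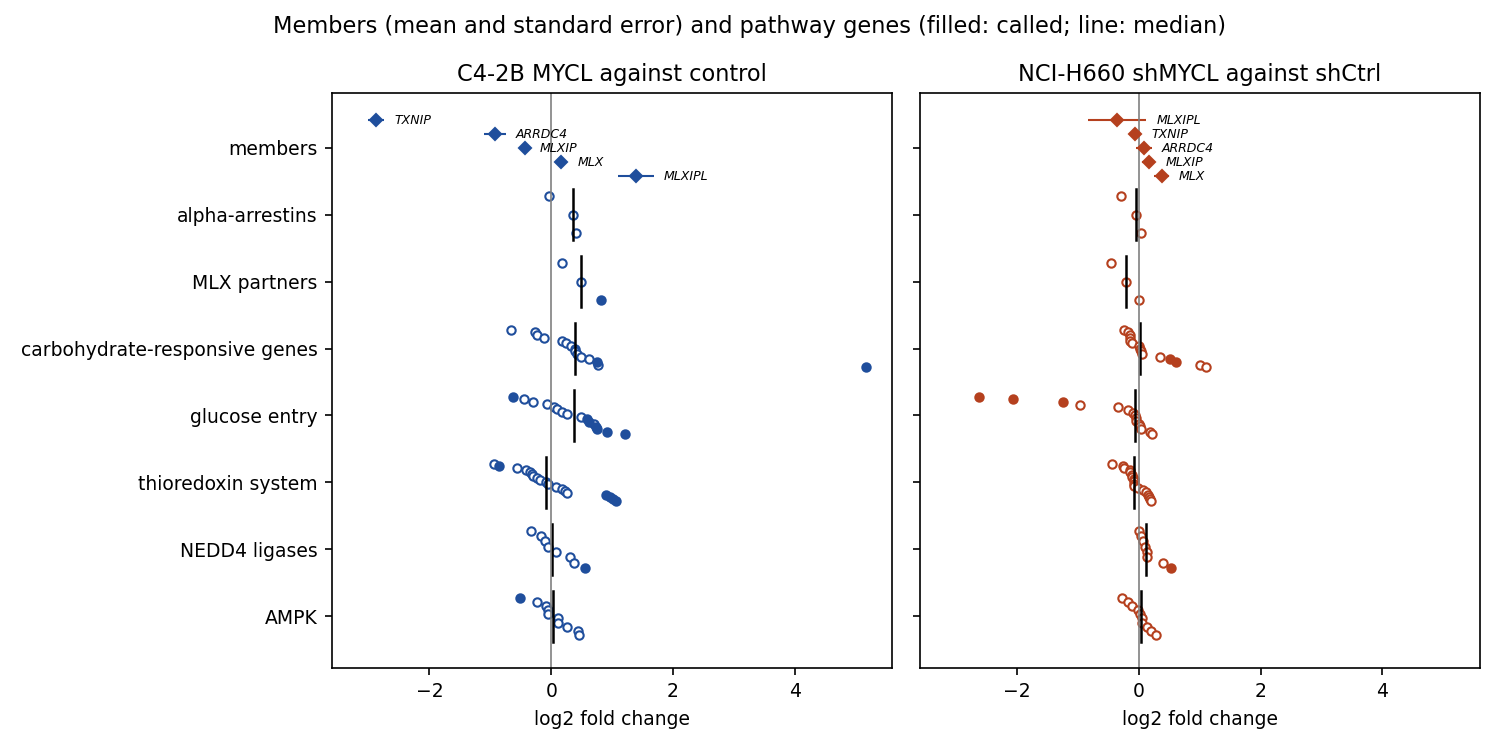
Log2 fold changes of the 5 members (diamonds with standard errors) and of the 7 lists of related genes (1 circle per gene tested, filled where called, black line at the list median) in both cell lines. TXNIP stands at −2.88 on the left and at −0.06 on the right, while the filled circles of glucose entry lie mostly above 0 in C4-2B MYCL and below 0 in NCI-H660 shMYCL.

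Around these genes, 92 genes of 7 lists on alpha-arrestins, MLX partners, carbohydrate-responsive genes, glucose entry, the thioredoxin system, NEDD4 ligases and AMPK were counted. In C4-2B MYCL cells 14 rose and 3 fell of 74 tested (18.9% and 4.05%, against 11.8% and 8.12% of all genes), with a median log2 fold change of 0.17 against 0.00 for all genes. On log2(TPM + 1) the counts were 8 and 5, where all genes gave 1006 higher and 1997 lower calls against 1986 and 1369 from counts. In NCI-H660 shMYCL cells 3 rose and 3 fell of 72 tested (4.17% each, against 7.18% and 8.99% of all genes), with a median of −0.01 against 0.00.

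Glucose entry, the list of transporters and of enzymes that handle glucose 6-phosphate, held the largest number of these calls. In C4-2B MYCL cells 6 of 16 genes tested rose and 1 fell (37.5% and 6.25%, against 11.8% and 8.12% of all genes), with a list median of 0.38. SLC2A1, the ubiquitous transporter and a cargo of TXNIP, rose from 59.1 and 60.9 to 107 and 119 CPM (log2 fold change 0.92 ± 0.081 SE, adjusted p = 9.59e-05, edgeR's quasi-likelihood test). SLC2A12, another transporter, rose from 9.32 and 8.74 to 20.1 and 21.5 CPM (1.21 ± 0.118, adjusted p = 0.000155, edgeR's quasi-likelihood test). HK2, the inducible hexokinase that makes glucose 6-phosphate, rose from 96.7 and 101 to 152 and 143 CPM (0.58 ± 0.074, adjusted p = 0.000537), a call lost on uncentred TPM values at 0.42 to 0.44. SLC37A4, the glucose 6-phosphate carrier of the endoplasmic reticulum, fell from 52.1 and 54.2 to 32.8 and 35.5 CPM (−0.63 ± 0.085, adjusted p = 0.000718, edgeR's quasi-likelihood test). The remaining genes of the list that rose were GPI, PGM1 and SLC2A4, named after their values were seen.

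In NCI-H660 shMYCL cells 3 of 15 genes of the glucose entry list fell (8.99% of all genes did). None rose by edgeR or DESeq2 (7.18% of all genes did by edgeR), none also at an unadjusted p under 0.05, and the list median was −0.07. HK2 fell from 134 and 169 to 25.2 and 24.0 CPM, 6.17-fold (log2 fold change −2.63 ± 0.130 SE, adjusted p = 4.29e-09, edgeR's quasi-likelihood test). SLC2A1 fell from 92.5 and 119 to 27.7 and 22.7 CPM, 4.20-fold (−2.07 ± 0.140, adjusted p = 1.02e-07, edgeR's quasi-likelihood test). SLC2A12, named here after its values were seen, was at 13.2 and 11.3 CPM in shCtrl and at 4.30 and 6.05 CPM in shMYCL (−1.24 ± 0.204, adjusted p = 0.000447). The calls of HK2 and SLC2A1 were lost on TPM values without a filter (adjusted p = 0.0559 and 0.0802 with limma, the highest of their alternatives), where 1 gene was called of all. In the same shMYCL libraries TXNIP stood at 833 and 914 CPM and ARRDC4 at 25.5 and 28.3 CPM, within or next to their shCtrl values.

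**Figure D4:**
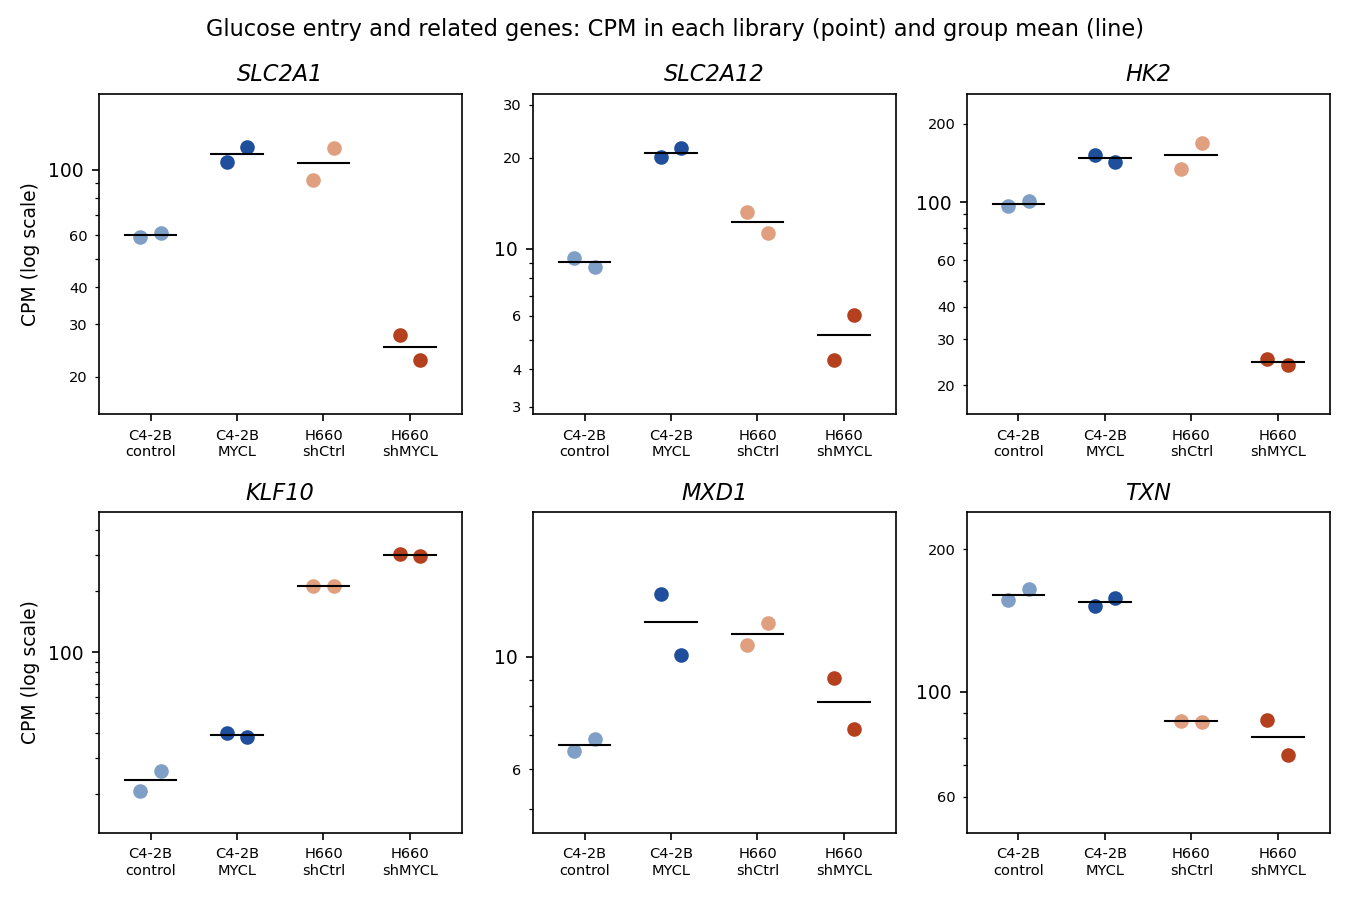
CPM (log axis) of SLC2A1, SLC2A12, HK2, KLF10, MXD1 and TXN, with 1 point per library and a line at each group mean. SLC2A1, SLC2A12 and HK2 are higher with MYCL in C4-2B cells and lower in NCI-H660 shMYCL cells, KLF10 is higher in the treated group of each line, and the TXN groups overlap within each line.

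Carbohydrate-responsive genes, known as targets of ChREBP or MondoA mainly in liver, showed 2 genes that rose and none that fell of 15 tested in each line, counts that DESeq2 also gave. The 13.3% that rose compares with 11.8% of all genes in C4-2B MYCL and 7.18% in NCI-H660 shMYCL cells, and the list medians were 0.38 and 0.03. Of all genes, 8.12% and 8.99% fell in the same order. At an unadjusted p under 0.05, 7 of them were higher and 2 lower in C4-2B MYCL cells, and 5 were higher and 0 lower in NCI-H660 shMYCL cells. KLF10, a glucose-induced repressor, rose from 20.7 and 26.2 to 40.2 and 38.3 CPM in C4-2B MYCL cells (log2 fold change 0.76 ± 0.119 SE, adjusted p = 0.00152, edgeR's quasi-likelihood test). It also rose from 212 in both shCtrl libraries to 306 and 299 CPM in shMYCL (0.51 ± 0.101, adjusted p = 0.00191, edgeR's quasi-likelihood test), at the edge of the minimum and under it without shMYCL replicate 1 or with a filter of 10 counts in every library, and not called on TPM values without a filter (adjusted p = 0.0933 with limma). ELOVL6, a fatty acid elongase, rose from 21.8 and 15.9 to 28.5 and 28.9 CPM in NCI-H660 shMYCL (0.61 ± 0.148, adjusted p = 0.00715, edgeR's quasi-likelihood test), not called without shCtrl replicate 2 (0.40) or on TPM values. FGF21, a hormone gene induced by ChREBP in liver and named after its values were seen, had 8 and 3 counts in C4-2B control and 82 and 172 with MYCL (adjusted p = 0.000185, edgeR's quasi-likelihood test), and at most 2 counts in NCI-H660 libraries.

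In the thioredoxin system, TXN, the direct binding partner of TXNIP, was at 156 and 164 CPM in C4-2B control and at 152 and 158 CPM with MYCL (log2 fold change −0.05 ± 0.071 SE, adjusted p = 0.659, edgeR's quasi-likelihood test). In NCI-H660 cells TXN was at 86.9 and 86.4 CPM in shCtrl and at 86.9 and 73.4 CPM in shMYCL (−0.12 ± 0.111, adjusted p = 0.487). Of the list, 4 of 19 genes tested rose and 1 fell in C4-2B MYCL cells (21.1% and 5.26%, against 11.8% and 8.12% of all genes). The list median was −0.08, and at an unadjusted p under 0.05, with no minimum on the fold change, 6 were higher and 6 lower. PRDX5, a peroxiredoxin, rose from 117 and 108 to 216 and 254 CPM (1.07 ± 0.091, adjusted p = 8.49e-05, edgeR's quasi-likelihood test). MSRB2, a methionine sulfoxide reductase, rose by 0.97 on the log2 scale (adjusted p = 0.0025, edgeR's quasi-likelihood test), and TXNRD1 and NXN, named after their values were seen, by 0.90 and 1.02. MAP3K5, the kinase ASK1 held inactive by thioredoxin, fell by 0.85 (adjusted p = 0.00171, edgeR's quasi-likelihood test). In NCI-H660 cells none of 18 was called by edgeR or DESeq2, with 2 lower at an unadjusted p under 0.05. Of all genes tested there, 7.18% were called higher and 8.99% lower.

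NEDD4-type ubiquitin ligases such as ITCH mark TXNIP protein for degradation, and the energy sensor AMPK phosphorylates it. Of 8 such ligases tested, 1 was called higher in each line (12.5%, against 11.8% of all genes in C4-2B and 7.18% in NCI-H660), a count near the share of all genes in C4-2B cells, and the list medians were 0.01 and 0.12. NEDD4 rose in C4-2B MYCL cells (0.55 ± 0.126, adjusted p = 0.00936) and SMURF1 in NCI-H660 shMYCL cells (0.52 ± 0.124, adjusted p = 0.00628, edgeR's quasi-likelihood test). NEDD4 was no longer called without control replicate 1 (0.47) or MYCL replicate 1 (0.38), nor SMURF1 without shCtrl replicate 1 (0.46) or shMYCL replicate 1 (0.47), and neither was called on TPM values. Of 10 genes of AMPK and its upstream kinases, PRKAA2, a catalytic subunit, was the 1 that fell in C4-2B MYCL cells, where 8.12% of all genes did (−0.51 ± 0.076, adjusted p = 0.0012, edgeR's quasi-likelihood test), under the minimum without control replicate 1 (−0.48) or MYCL replicate 1 (−0.48). On TPM values without a filter PRKAA2, MSRB2, MAP3K5 and KLF10 were not called in C4-2B cells (adjusted p = 0.0541 to 0.126 with limma). In NCI-H660 cells none of the 10 AMPK genes was called by edgeR or DESeq2, with 1 higher at an unadjusted p under 0.05. The shares of all genes called there were 7.18% higher and 8.99% lower. Without shMYCL replicate 1, the count of genes of all lists that rose in NCI-H660 cells went from 3 to 1.

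The genes whose log2 CPM correlated most closely with that of TXNIP over the 8 libraries were CDC42EP3 (Pearson r = 0.9986), NCAPD3 (0.9979), HNRNPAB (0.9970), PSMD11 (0.9965) and SKA2 (0.9963), among 10388 genes with a mean log2 CPM of at least 3. The correlations describe libraries that share a cell line in sets of 4. They do not weigh the size of a change, and they take up the C4-2B difference by which TXNIP was chosen. CDC42EP3, an effector of the small GTPase CDC42, was at a mean of 13.6 CPM in C4-2B control, 4.16 with MYCL, 56.8 in shCtrl and 51.4 in shMYCL. Its log2 fold change was −1.70 in C4-2B cells and −0.15 in NCI-H660 cells, against −2.88 and −0.06 for TXNIP. Smaller changes were seen in C4-2B cells for NCAPD3 (−0.549), HNRNPAB (−0.771), PSMD11 (−0.566) and SKA2 (−0.662). In NCI-H660 cells these genes were at −0.092, −0.058, 0.012 and −0.045 in the same order. Of the other members, ARRDC4 ranked 74th (r = 0.9893), MLXIP 254th (r = 0.9790) and MLX 9472nd (r = −0.9439) among the 10388 genes. MLXIPL lay under the minimum log2 CPM and was not ranked.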

How the data were processed

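RNA was sequenced from 4 groups of 2 libraries by poly(A) selection and paired-end reads, with hg38 named as the build in the submitters' processing notes. The aligner and the counting tool are not given in the sources used here. The authors deposited gene-level estimated counts without normalization between libraries, and the counts were made whole by rounding for the tests. The authors also deposited TPM values for the first 65535 of 78691 genes. The paper describes TPM made from counts and Ensembl gene lengths, but the deposited values do not follow from a fixed length per gene. From C4-2B control replicate 1 to 2, TXNIP went from 1584 to 1398 counts and from 22.02 to 26.4 TPM. MLX went from 3134 to 2100 counts and from 63.48 to 62.54 TPM, a different change of TPM per count. How the lengths were set for these values was not settled. TPM was used to compare genes with each other.

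Each comparison was fitted on its own 4 libraries with edgeR 4.0.16 (R 4.3.3), TMM normalization, filterByExpr and the quasi-likelihood test. Adjustment of p was by Benjamini-Hochberg over every tested gene. A call needed an adjusted p under 0.05 and a log2 fold change of 0.5 or more in size. The standard error was the size of the log2 fold change divided by the square root of F, and 95% intervals used the test's own degrees of freedom. CPM was scaled by TMM over all 8 libraries, so ratios of CPM differ slightly from fitted folds. The spread between replicates (biological coefficient of variation) came to 0.083 for C4-2B and 0.097 for NCI-H660. The smallest p that an exact permutation test allows for 2 libraries against 2 is 0.33. Tested on simulated data with 2-fold changes, the procedure recovered 82.5% in C4-2B (16866 genes), 80.5% in NCI-H660 (16980 genes) and 73.5% between the lines (18748 genes), and 5.17%, 3.59% and 1.34% of the calls in the same order were of genes simulated without a change. The simulation gave every gene the same spread between replicates and changed far fewer genes than were called here. These shares therefore check the procedure and may not hold for the data.

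The members and the gene lists, taken from general knowledge, were chosen with earlier results of these data known. Genes named in the text were the members, all alpha-arrestins and MLX partners, SLC2A1, HK2, TXN and KLF10, and from each other list up to 2 called genes per direction and line of the largest change with a log2 CPM of at least 3 and separate groups. Genes taken by this last rule were thus also picked by their values, and their p-values are those of the largest changes. Likeness to TXNIP was Pearson's r of log2(CPM + 0.5). Positions came from GENCODE 44, in which 61458 gene identifiers of the count table were found, and promoter windows from RefSeq (GRCh38.p14), which held 6 windows for the 5 members. Alternatives were DESeq2 1.42.0, RLE size factors, other filters, a fit of all 4 groups, a replicate block, limma 3.58.1 on log2(TPM + 1) and log2(TPM + 0.1), with or without a filter (TPM of at least 1 in 2 libraries) or centred on library medians, other fold thresholds, and leaving out each library. Python 3.11.15, pandas 2.3.3 and matplotlib 3.10.9 were used for tables and figures. Replicate libraries differed by more than sampling noise (chi-square per degree of freedom 5.13 to 12.81). Same-numbered libraries did not deviate together (correlation −0.003 in C4-2B and 0.028 in NCI-H660).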

Additional observations from a re-analysis of the deposited data

How the results depend on the processing

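In NCI-H660 cells no member was called under any alternative fit that could test it (MLXIPL did not pass the TPM filter). Other fold thresholds were applied to the counts of pathway genes and not to the members. MLX, with an adjusted p of 0.0301 (edgeR's quasi-likelihood test), was kept from a call there by the minimum of 0.5 alone. TXNIP there ranged from −0.13 to 0.011, with 0.011 without shMYCL replicate 1 the one value of the opposite sign. In C4-2B cells the direction of TXNIP, ARRDC4, MLXIP and MLXIPL held under all 14 alternatives. These are fits of the same libraries, and for TXNIP the direction follows from its choice in them, so nothing is read from it. TXNIP was −2.631 on log2(TPM + 1) with or without the filter and −2.482 when centred. ARRDC4 was −0.622 when centred and −1.132 to −0.738 with a library left out. MLXIP was −0.506 on log2(TPM + 1) with or without the filter, −0.561 on log2(TPM + 0.1), −0.357 when centred and −0.487 to −0.398 with a library left out. MLXIPL was 0.65 on log2(TPM + 1) with or without the filter, 0.799 when centred and 1.108 to 1.624 with a library left out. MLX turned to −0.072 on log2(TPM + 1), filtered or not, and to −0.073 on log2(TPM + 0.1). Between the lines TXNIP was 4.556 on log2(TPM + 1) with or without the filter, 4.607 on log2(TPM + 0.1), 3.846 when centred and 3.863 to 4.126 with a library left out, and MLXIP passed the threshold at 0.973 on log2(TPM + 1), filtered or not, and at 1.035 on log2(TPM + 0.1).

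Other genes of opposite sign were ARRDC3 in C4-2B cells (0.137 without MYCL replicate 2, −0.234 at the other end of the libraries left out), MXD4 there (−0.216 on log2(TPM + 1), filtered or not, −0.227 on log2(TPM + 0.1), −0.067 when centred) and, in NCI-H660 cells, ARRDC1 (−0.125 to 0.214 with a library left out), ARRDC2 (−0.313 to 0.278), TXN (−0.233 to 0.004) and MNT (−0.004 with at least 10 counts in every library, −0.003 with the replicate block, −0.167 to 0.168 with a library left out). Pathway genes that rose in C4-2B numbered 8 on log2(TPM + 1), 9 on log2(TPM + 0.1), 6 without the TPM filter, 26 with no minimum on the fold change and 4 at a minimum of 1, and those that fell 5, 5, 2, 10 and 0 in the same order. In NCI-H660 those that rose numbered 1 on log2(TPM + 1), 1 on log2(TPM + 0.1), 0 without the TPM filter, 1 when centred, 5 with no minimum and 0 at a minimum of 1, and 1 to 3 with a library left out, and those that fell numbered 0 without the TPM filter. The replicate block changed no call of a member, and the calls over all genes in C4-2B were 2104 higher and 1432 lower with it. MLXIPL had 14 to 105 counts per library, which limits its precision. Over all genes, the calls on log2(TPM + 1) without the filter were 593 higher and 1347 lower in C4-2B and 0 and 1 in NCI-H660, on log2(TPM + 1) with it 786 and 916 in NCI-H660, and between the lines 4418 and 4516 with at least 10 counts in every library. The cause of these movements was not tested.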

Other observations

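Values of the genes around the members were also taken. Within 500 kb of TXNIP (GENCODE 44), 17 neighbours were tested in C4-2B MYCL cells, and their log2 fold changes ran from −1.04 (PDZK1, a scaffold protein gene) to 1.45 with a median of −0.05, against −2.88 for TXNIP, and 3 were called higher and 0 lower by edgeR and by DESeq2, with 5 higher and 3 lower at an unadjusted p under 0.05. In NCI-H660 shMYCL cells 18 neighbours ran from −0.99 to 0.66 with a median of −0.15, against −0.06 for TXNIP, and 2 were called higher and 2 lower. Of all genes tested, 11.8% were called higher and 8.12% lower in C4-2B MYCL cells and 7.18% and 8.99% in NCI-H660 shMYCL cells. ARRDC4 had 0 tested genes within that distance. The 17 neighbours of MLXIPL in C4-2B MYCL cells ran from −0.40 to 1.84 with a median of 0.28, against 1.39 for MLXIPL, and 6 of them were called higher and 0 lower by edgeR, 4 and 0 by DESeq2, and 10 and 1 at an unadjusted p under 0.05. The 19 in NCI-H660 shMYCL cells ran from −1.30 to 0.73 with a median of −0.16, and 0 were called higher and 4 lower by edgeR and by DESeq2, with 3 and 5 at an unadjusted p under 0.05. Near MLX, 7 of 37 were called higher and 3 lower by edgeR in C4-2B MYCL cells (5 and 3 by DESeq2, median −0.09), and near MLXIP 1 of 22 was called higher and 3 lower (0 and 3 by DESeq2, median −0.13). In NCI-H660 shMYCL cells 0 of 40 near MLX were called in either direction by edgeR or DESeq2 (median 0.03), with 5 higher and 2 lower at an unadjusted p under 0.05. Near MLXIP 0 of 19 were called higher and 1 lower by either tool (median 0.11), with 3 and 3 at an unadjusted p under 0.05.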
